A study of Mus musculus with 2 samples.

Results

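The cells described here were liver endothelial cells (ECs) of postnatal mouse pups carrying iSuRe-HadCre and liver ECs of control pups, read in a single droplet library. They were 130 of the 7705 barcodes that passed the quality limits and expressed Cdh5 (the gene of VE-cadherin, the adhesion protein of EC junctions), 76 from iSuRe-HadCre liver and 54 from Control liver. A barcode was kept with 2000 to 75000 UMIs (unique molecular identifiers, each counting a captured transcript), more than 500 genes, less than 5% mitochondrial and less than 5% haemoglobin transcripts, and a Cdh5 value above 0.9 on the natural-log scale per 10000 UMIs. Its group came from antibody hashtags that label cells before pooling. The tag of the group had to reach 25 UMIs (140 for the iSuRe-Cre liver tag) and every other of the 6 tags had to stay below its own minimum.

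iSuRe-HadCre is an allele that, once recombined by an inducible Cre, expresses a membrane-bound Tomato protein (MbTomato) and a short pulse of further Cre. Pups were C57BL/6, with an age given as P6-P7, and the library's genotype label names Cdh5-CreERT2, which places a tamoxifen-dependent Cre in ECs, together with the inducible allele. All groups of the pool shared a single dose of 40 mg/kg 4-hydroxytamoxifen (4-OHT) on postnatal day 3 and were collected 3 days later, and liver and heart cells were sorted as CD31+ MbTomato+ ECs. The purpose of this pool in the study was to read whether a floxed Notch1 gene was lost, and the floxed alleles are named in the study and not in the labels. Neither the genotype of the control animals nor the number of pups behind each tag could be taken from the labels or the study. Cdh5-CreERT2 acts in ECs, so values from cells of another kind in the sort do not report on the deletion.

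Each group was 1 hashtagged sample, so no test was possible. Levels are the UMIs of a gene summed over the cells of a group per 1000000 UMIs of that group (CPM), and ratios are iSuRe-HadCre liver over Control liver with exact conditional 95% intervals that cover counting error only. Animals, hashtags and genotype cannot be told apart. Fewer cells of a type and less RNA per cell cannot be told apart either in these sums.

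The groups had similar depth. The 76 iSuRe-HadCre liver cells held 682984 UMIs, with a median of 7384 per cell (2078 to 40814), and the 54 Control liver cells 624048 UMIs, with a median of 7980 (2252 to 55581). The median of genes detected was 3098 and 3245, that of the mitochondrial share 2.03% and 2.65%, and that of the own tag 100.5 and 93.5 UMIs. The tags separated the cells poorly, since the highest other tag of the same cells had a median of 22 and 22.5 UMIs, and 5717 of the 7705 Cdh5-expressing barcodes (74.2%) carried no single tag by this rule. RNA free in the droplets was estimated at 12.3% of the UMIs in iSuRe-HadCre liver and 6.28% in Control liver. The estimate rested on 8 cardiomyocyte markers, with 32 UMIs in iSuRe-HadCre and 15 in Control liver (ratio 1.95, 1.03 to 3.87). A single iSuRe-HadCre cell held 10 of these UMIs, so both shares are uncertain.

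EC genes were present in both groups. Cdh5, which selected the cells, was at 921 CPM in iSuRe-HadCre and 1077 CPM in Control liver, and Pecam1, the gene of the sorted protein CD31, at 858 and 872 CPM. Among genes used in neither step, Tek was at 342.6 and 312.5 CPM and Egfl7 at 1000 and 766 CPM. Over 14 pan-endothelial genes, Cdh5 and Pecam1 included, all of which had enough UMIs to be compared, none was past 2-fold in either direction and the median log2 ratio was 0.05. Liver origin was weaker in the markers. Stab2, Clec4g and Oit3, markers of the sinusoids, were at 30.4, 17.6 and 32.1 CPM in Control liver against 1446, 308.5 and 276.8 CPM in the 858 ECs tagged as iSuRe-Cre liver. Dnase1l3 had no UMI in Control liver and 23 in iSuRe-HadCre liver. Rspo3 and Gata4, also genes of liver ECs, set both groups apart from heart, at 641.3 and 749.9 CPM for Rspo3 against 16.1 and 12.5 CPM in the corresponding heart groups.

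Notch receptors are membrane proteins that neighbouring cells activate through Delta-like and Jagged ligands. Cleavage frees an intracellular domain which joins the DNA-binding protein RBPJ and switches on target genes such as Hes1, Hey1 and Nrarp. In blood vessels the pathway directs arterial identity and restrains sprouting, and in the liver it helps to regulate the differentiation of the sinusoids. Liver sinusoidal ECs are fenestrated scavenger cells that clear waste from the blood through receptors such as stabilins and the mannose receptor, and those near the central vein supply hepatocytes with Wnt ligands and R-spondin.

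Across all genes, 5178 had at least 50 UMIs over both groups and were compared. With 10 CPM added to both values, 57 of them (1.10%) were past 2-fold higher in iSuRe-HadCre liver and 74 (1.43%) past 2-fold lower, and the median log2 ratio was 0.003. Cells were few, so many of these values came from few cells. A single cell held more than 50% of the higher group's UMIs for 44 of the 131 genes, and 45 had UMIs in fewer than 10 cells of the higher group. UMIs were found in 10 or more cells of the higher group for 49 of the 57 higher genes and 37 of the 74 lower ones. Calls past 2-fold below use the added 10 CPM unless another value is named, while printed ratios do not. A gene of low level can thus have a printed ratio past 2-fold without being called.

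Notch1, the targeted receptor gene (chr2:26457903-26516663, minus strand, GRCm38), was lower in iSuRe-HadCre liver. It had 21 UMIs, or 30.8 CPM, there and 100 UMIs, or 160.2 CPM, in Control liver, a ratio of 0.192 (0.114 to 0.309). Per cell, in UMIs per 10000, iSuRe-HadCre ranged from 0 through a median of 0 to 8.45 and Control from 0 through 1.30 to 8.96, so the ranges overlapped while most iSuRe-HadCre cells had none. A Notch1 UMI was found in 11 of 76 iSuRe-HadCre cells (14.5%, exact binomial 95% interval 7.45 to 24.4) and in 41 of 54 Control cells (75.9%, 62.4 to 86.5). With every cell thinned to 2000 UMIs the shares were 3.61% and 29.0%. Groups assigned by HTODemux instead of the tag minimum, which admitted cells with as few as 3 and 2 UMIs of their tag, gave a Notch1 ratio of 0.503.

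For comparison, barcodes with markers of cell types that should lack Notch1 were read as a background of free transcripts. Barcodes with any Cdh5 UMI were left out of these, here and below. That also removes barcodes with stray EC transcripts, so their shares can understate the background for an EC gene. A Notch1 UMI was present in 10 of 129 barcodes with hepatocyte markers (7.75%, 3.78 to 13.8), at a median depth of 5179 UMIs, and in 4 of 45 with erythroid markers (8.89%, 2.48 to 21.2), at a depth of 52550. At these unequal depths the interval of the iSuRe-HadCre share included both of these shares. With every barcode thinned to the same depth as the liver cells above, the background shares were lower than the 3.61% of iSuRe-HadCre liver. They were 0.953% with hepatocyte markers and 1.02% with erythroid markers. In heart Notch1 was at 23.2 CPM in iSuRe-HadCre and 137.6 in Control, and the liver ratio over the heart ratio was 1.14 (0.668 to 1.94). It was at 21.4 CPM in the iSuRe-Cre liver cells, whose own ratio would rest on the same Control cells. Whether the counted stretch of the transcript lies within the deleted exons is not given in the sources used here.

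**Figure D1:**
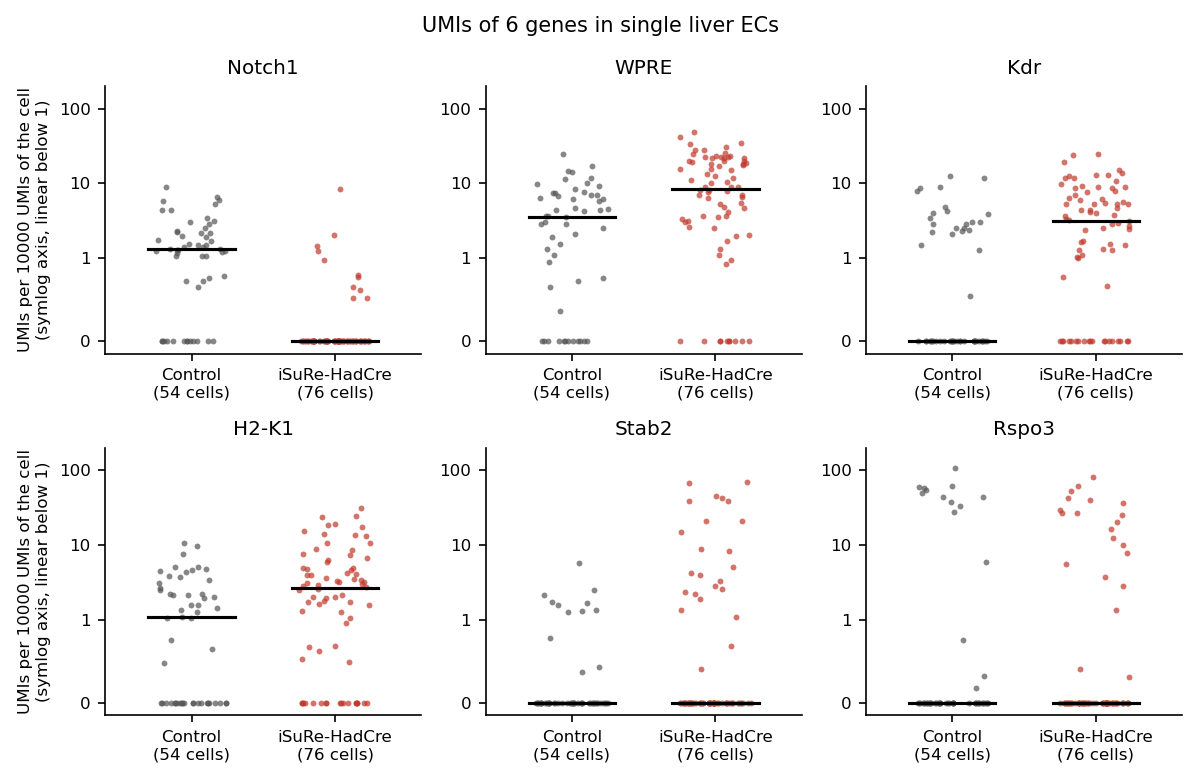
UMIs per 10000 of 6 genes in each cell (vertical axis, linear below 1 and logarithmic above) for Control liver (54 cells) and iSuRe-HadCre liver (76 cells), with each point a cell and the black line the median. Notch1 was at 0 in 65 of 76 iSuRe-HadCre cells and 13 of 54 Control cells, the medians of WPRE, Kdr and H2-K1 lay higher in iSuRe-HadCre, and Stab2 reached 68.8 per 10000 in iSuRe-HadCre against 5.77 in Control.

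The other receptors were scarce and their values lay close together. Notch4, the receptor most restricted to ECs, was at 35.1 and 35.3 CPM (0.997, 0.535 to 1.87), and Notch2 at 23.4 and 24.0 CPM (0.975, 0.451 to 2.12). Notch3, a receptor of mural cells, had 4 UMIs in each group. These intervals were wide, so differences of up to nearly 2-fold in Notch4 were not detectable at this depth.

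Among the ligands, the larger values differed little. Jag1 was at 80.5 and 91.3 CPM (0.882, 0.598 to 1.30) and Dll4, the ligand of tip cells and arteries, at 46.9 and 62.5 CPM (0.750, 0.455 to 1.23). Dll1, a ligand of arterial ECs, had 34 and 14 UMIs, a ratio of 2.22 (1.16 to 4.48), and Dlk1, a non-canonical ligand, 29 and 13 UMIs (2.04, 1.03 to 4.27). The glycosyltransferase genes Mfng and Lfng, which tune ligand binding, had ratios of 0.881 and 0.971 with intervals that included 1. Of the 8 ligand and modifier genes 4 could be compared and none was past 2-fold.

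Of 8 Notch target genes, 4 had enough UMIs, none was past 2-fold and 3 lay below 1, with a median log2 ratio of -0.33. Hes1, a transcriptional repressor, was at 133.2 CPM in iSuRe-HadCre and 187.5 in Control liver (0.711, 0.534 to 0.943), with a UMI in 37 of 76 (48.7%) and 40 of 54 cells (74.1%), against 41.1% of the hepatocyte-marker and 17.8% of the erythroid-marker barcodes. The 95% interval of the iSuRe-HadCre share, 37.0 to 60.4, included the former. Nrarp, a feedback inhibitor of Notch, was at 39.5 and 73.7 CPM (0.536, 0.321 to 0.881), and at a ratio of 1.01 by HTODemux. Hey1 was at 35.1 and 41.7 CPM (0.843, 0.464 to 1.53) and Id1 at 344.1 and 342.9 CPM. Hey2, Heyl and Hes5 had 0 or 1 UMI in each group. In heart, Nrarp was at 50.9 CPM in iSuRe-HadCre and 49.8 in Control, so that its liver ratio over its heart ratio was 0.525 (0.311 to 0.887).

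The sequences added to the genome for the transgenes read the label of the groups from another side. WPRE is a viral element of reporter transcripts that raises RNA stability and transport. It had 731 UMIs in iSuRe-HadCre and 247 in Control liver, or 1070 and 395.8 CPM, a ratio of 2.70 (2.34 to 3.14). Its median per cell was 8.46 and 3.57 UMIs per 10000, and the ranges overlapped from 0 to 24.9. Tomato was at 191.8 and 78.5 CPM (2.44, 1.75 to 3.47), Bgh-pA at 127.4 and 49.7 CPM (2.56, 1.68 to 4.00) and ERT2 at 39.5 and 16.0 CPM (2.47, 1.16 to 5.71). Cre had 18 and 6 UMIs (2.74, 1.04 to 8.44). By HTODemux the ratio was 1.42 for WPRE and 1.56 for Tomato.

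The Control cells thus also carried reporter sequence. A WPRE UMI was found in 42 of 54 Control cells (77.8%, 64.4 to 88.0) and 66 of 76 iSuRe-HadCre cells (86.8%, 77.1 to 93.5), against 43.4% of the hepatocyte-marker barcodes and 26.7% of the erythroid-marker barcodes. Sv40-pA ran the other way, at 52.7 CPM in iSuRe-HadCre and 149 CPM in Control liver (0.354, 0.234 to 0.525). Of the 6 sequences whose interval excluded 1, it was the single one lower in iSuRe-HadCre. WPRE was at 1055 CPM in iSuRe-HadCre heart and 562.4 CPM in Control heart, and the liver ratio over the heart ratio was 1.44 (1.23 to 1.68).

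Genes of the major histocompatibility complex (MHC) class I pathway were higher in iSuRe-HadCre liver. This pathway displays peptides of the cell's own proteins to cytotoxic T cells, and interferons raise it. Of 13 listed genes 9 could be compared. Of these 4 were past 2-fold higher (H2-K1, H2-T23, Psmb8 and Psmb9), against 1.10% of all genes compared, none lower, and all 9 ratios were above 1, with 7 intervals above 1. The median log2 ratio was 0.94, against 0.003 over all genes compared. Summed over the list the level was 2630 CPM in iSuRe-HadCre and 1351 CPM in Control liver (1.95, 1.79 to 2.12), and 1.20 by HTODemux. None of the list was past 2-fold by HTODemux, at a tag minimum of 10 UMIs or without the Cdh5 limit.

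The presenting molecules themselves carried most of the UMIs. H2-K1, a classical heavy chain (chr17:33996017-34000347, minus strand), was at 415.8 and 144.2 CPM (2.88, 2.27 to 3.70). Its median per cell was 2.66 UMIs per 10000 in iSuRe-HadCre and 1.07 in Control, and the highest cell reached 30.9 and 10.5. B2m, the light chain shared by all class I molecules (chr2:122147686-122153083, plus strand), was at 855.1 and 442.3 CPM (1.93, 1.67 to 2.24). H2-D1, the other classical chain, was at 721.8 and 480.7 CPM (1.50, 1.30 to 1.74), and the non-classical H2-T23 at 114.2 and 41.7 CPM (2.74, 1.74 to 4.45).

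The machinery that supplies peptides lay in the same direction. Psmb8 and Psmb9, subunits of the immunoproteasome, were at 158.1 and 68.9 CPM (2.30, 1.6 to 3.35) and at 70.3 and 27.2 CPM (2.58, 1.46 to 4.79). Tap1, a subunit of the peptide transporter, had 34 and 7 UMIs (4.44, 1.94 to 11.9), while its partner Tap2 was at 46.9 and 33.7 CPM (1.39, 0.779 to 2.54). Tapbp, the chaperone tapasin, was at 61.5 and 46.5 CPM (1.32, 0.805 to 2.20). H2-Q4, H2-Q6 and H2-Q7 had 36, 12 and 36 UMIs in iSuRe-HadCre and 18, 3 and 10 in Control liver, and these near-identical paralogs are uncertain because reads can be split between them.

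The class I values were also higher in iSuRe-HadCre than in Control heart for some members. H2-K1 was at 369.6 and 144.2 CPM there and B2m at 729.3 and 458.7 CPM, while H2-D1 was at 563.7 and 650.5 CPM. The liver ratio of H2-K1 over its heart ratio was 1.13 (0.866 to 1.46). In iSuRe-Cre liver H2-K1 was at 543 CPM and B2m at 1337 CPM. Free transcripts were at 174.5 CPM for H2-K1.

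Interferon-stimulated genes showed a smaller difference. Of 19 listed genes 11 could be compared, 1 was past 2-fold higher, none lower, and 9 lay above 1. The median log2 ratio was 0.55, and the list summed to 1635 and 1093 CPM (1.50, 1.36 to 1.65). By HTODemux the summed ratio was 1.01, the median log2 ratio 0.07 and none was past 2-fold. Irf1, a transcription factor that activates class I genes, was at 145 and 59.3 CPM (2.45, 1.66 to 3.67). Stat2, a signal transducer of interferon receptors, was at 70.3 and 32.1 CPM (2.19, 1.28 to 3.90). Bst2, which tethers budding virus and was the most abundant of the list, was at 544.7 and 415 CPM (1.31, 1.12 to 1.54).

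Members of the list did not move alike. Isg15, a ubiquitin-like protein, was at 131.8 and 136.2 CPM (0.968, 0.711 to 1.32) and Ifi27 at 80.5 and 91.3 CPM (0.882, 0.598 to 1.30). Ifit3 had 30 and 5 UMIs (5.48, 2.11 to 18.1), in 15 and 4 cells. Usp18, which restrains interferon signalling, had 14 UMIs in 11 cells against 1 UMI, a ratio of 12.8 (1.95 to 541). Cxcl10, a T cell attractant, had 22 and 6 UMIs, and its relative Cxcl9 14 and 0. If the 0 is set to a floor of 3 counts, Cxcl9 was 4.26-fold higher. Over the same list iSuRe-Cre liver summed to 3395 CPM.

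**Figure D2:**
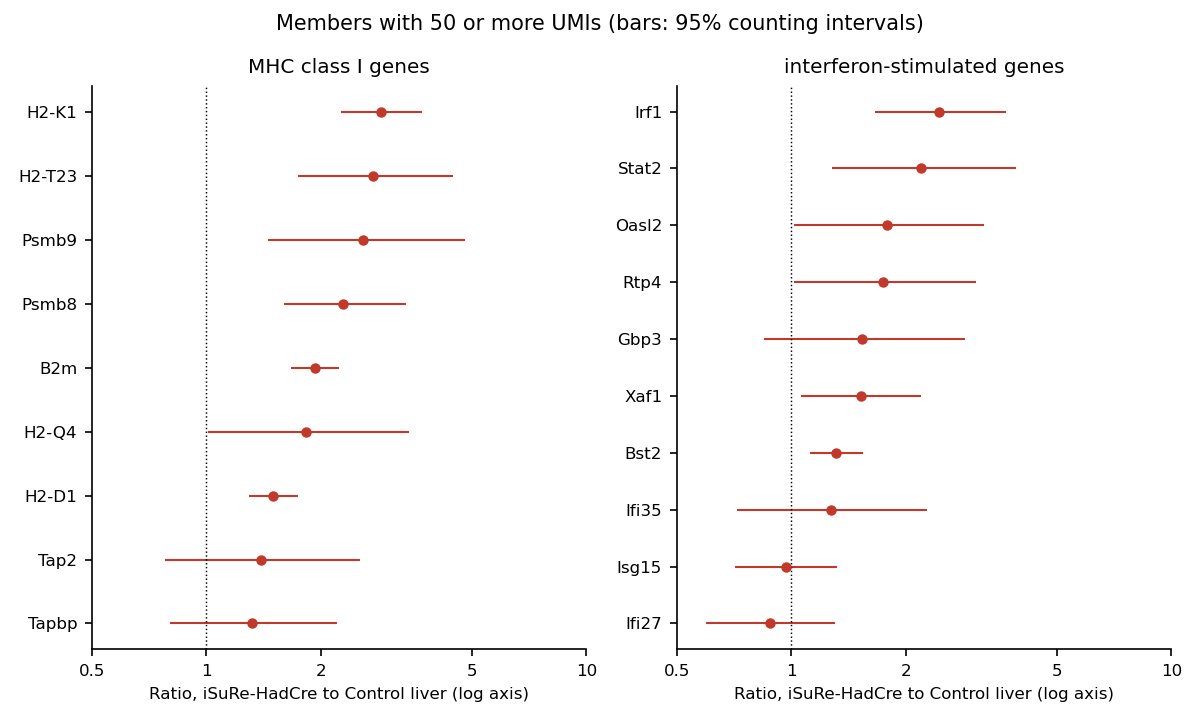
Ratio of CPM in iSuRe-HadCre liver over Control liver (logarithmic axis) for 9 MHC class I and 10 interferon-stimulated genes with at least 50 UMIs, with bars giving the exact 95% interval for counting error. All 9 class I ratios lay above 1, led by H2-K1 at 2.88, while Isg15 and Ifi27 lay below 1.

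The stretches before the start sites of 5 of these genes are printed because interferon signalling acts through short motifs, and each holds a match to such a motif in capitals. The motifs were the core of the interferon-stimulated response element (ISRE), written GAAA, any 2 bases and GAAA again (TTTC, any 2 bases and TTTC on the other strand), and the STAT element GAS, TTCNNNGAA, searched on both strands of the 250 bases before each RefSeq start (GRCm38.p6). They are the windows chr17:36032702-36032951 (minus strand) for H2-T23, chr2:122147437-122147686 (plus) for B2m, chr19:34583279-34583528 (plus) for Ifit3, chr17:34197945-34198194 (plus) for Psmb8 and chr11:53769764-53770013 (plus) for Irf1.
H2-T23: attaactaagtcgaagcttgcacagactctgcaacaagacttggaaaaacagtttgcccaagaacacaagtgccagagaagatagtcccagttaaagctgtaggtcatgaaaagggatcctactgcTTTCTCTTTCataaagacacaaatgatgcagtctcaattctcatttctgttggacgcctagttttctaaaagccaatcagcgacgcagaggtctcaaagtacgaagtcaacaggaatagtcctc
B2m: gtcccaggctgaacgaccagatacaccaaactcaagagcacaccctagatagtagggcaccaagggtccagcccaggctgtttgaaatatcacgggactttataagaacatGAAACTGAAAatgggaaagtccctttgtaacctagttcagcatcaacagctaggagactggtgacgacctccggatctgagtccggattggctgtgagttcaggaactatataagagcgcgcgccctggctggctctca
Ifit3: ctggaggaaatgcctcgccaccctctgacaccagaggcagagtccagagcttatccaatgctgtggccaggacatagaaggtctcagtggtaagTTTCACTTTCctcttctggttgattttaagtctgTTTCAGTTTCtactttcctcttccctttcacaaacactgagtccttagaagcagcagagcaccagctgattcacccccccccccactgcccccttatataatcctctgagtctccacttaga
Psmb8: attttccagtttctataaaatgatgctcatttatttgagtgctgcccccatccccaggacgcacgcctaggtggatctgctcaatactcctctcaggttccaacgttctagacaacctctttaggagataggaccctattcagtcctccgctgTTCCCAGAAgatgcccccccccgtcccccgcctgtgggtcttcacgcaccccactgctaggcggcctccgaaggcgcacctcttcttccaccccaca
Irf1: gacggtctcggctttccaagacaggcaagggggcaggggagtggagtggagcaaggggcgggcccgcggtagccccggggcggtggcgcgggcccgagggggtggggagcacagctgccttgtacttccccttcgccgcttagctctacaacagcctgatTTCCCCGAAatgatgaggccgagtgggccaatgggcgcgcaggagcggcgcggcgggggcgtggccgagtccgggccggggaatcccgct

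The ISRE core began 124 bases before the start in H2-T23, 139 in B2m, and 156 and 122 in Ifit3, which held 2 matches. GAS began 97 bases before the start in Psmb8 and 90 in Irf1. Of the 12 class I genes with a RefSeq window, 2 held the ISRE core (16.7%) and 1 held GAS (8.33%). Of the 15 interferon-stimulated genes with a window, 9 held the ISRE core (60.0%) and 3 held GAS (20.0%), against 2.98% and 7.02% of all 32851 windows. The core of the RBPJ motif, GTGGGAA or TTCCCAC, was in no window of the 12 class I genes and in 5.42% of all windows. With 12 genes, finding none cannot be told apart from that share. The core was in 1 of the 15 interferon-stimulated genes (Isg15) and in 2 of the 3 Notch target genes with a window (Hes5 and Hey2). A gene was counted if any of its windows held a match, whereas the shares of all windows count single windows, so the 2 are not alike. A match describes letters in the window and not a bound site.

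Sinusoidal genes were unequally represented. Of 20 listed genes 19 were in the matrix and 13 could be compared, with 4 past 2-fold higher (Stab2, Mrc1, Maf and Bmp2), against 1.10% of all genes compared, none lower and 9 ratios above 1. By HTODemux 1 was past 2-fold, with Mrc1 at 1.30 and Bmp2 at 1.53, and without the Cdh5 limit 2 were. The median log2 ratio was 0.64. Summed over the list the level was 3157 CPM in iSuRe-HadCre liver and 2386 CPM in Control liver (1.32, 1.24 to 1.41), against 7886 CPM in iSuRe-Cre liver and 1063 and 1154 CPM in the heart groups.

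The scavenger receptors led the list. Stab2, which takes up hyaluronan (chr10:86841198-87008025, minus strand), had 264 and 19 UMIs, or 386.5 and 30.4 CPM (12.7, 7.97 to 21.4). Mrc1, the mannose receptor, was at 127.4 and 24.0 CPM (5.30, 3.04 to 9.87), and Fcgr2b, an Fc receptor, had 24 and 4 UMIs (5.48, 1.88 to 21.7). The Fcgr2b UMIs lay in only 5 and 3 cells, and a single cell held 62.5% and 50% of them. Dnase1l3, a secreted nuclease, was at least 7.0-fold higher against the floor of 3 counts for its 0 UMIs in Control liver. Lyve1, another hyaluronan receptor, was at 124.5 and 73.7 CPM (1.69, 1.17 to 2.47), and Stab1 at 150.8 and 153.8 CPM (0.980, 0.735 to 1.31).

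The scavenger UMIs were unevenly spread over the cells. Stab2 had a UMI in 24 of 76 iSuRe-HadCre cells (31.6%) and 12 of 54 Control cells (22.2%), the latter near the 23.3% of hepatocyte-marker barcodes. With at least 2 Stab2 UMIs the shares were 25% and 7.41%. A set of 7 scavenger genes (Stab2, Mrc1, Dnase1l3, Fcgr2b, Clec4g, Lyve1 and Oit3) was chosen after seeing the data and leaves out Stab1. Each of the 7 had a higher summed level in iSuRe-HadCre liver, so the shares of cells over this set are a description. The intervals of Clec4g (1.74, 0.804 to 4.01) and Oit3 (1.74, 0.985 to 3.15) included 1. Lyve1 UMIs lay in 12 iSuRe-HadCre cells and 16 Control cells. Over the set, 12 iSuRe-HadCre cells (15.8%, 8.43 to 26.0) and 1 Control cell (1.85%, 0.0469 to 9.89) had 10 or more UMIs. So did 508 of 858 iSuRe-Cre liver cells (59.2%). With 3 or more UMIs the shares were 31.6% and 29.6%. Without the cells at 10 or more, a setting added after seeing the data, Maf, which did not define the removal, had a ratio of 1.28. For the 7 genes themselves the removal fixes the direction of the shift, so their values there are not read.

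The summed list, which holds the 7 genes used for the removal, was at 0.948 after it. Notch1, H2-K1, B2m and Kdr, none of them used for it, kept their side. In the remaining 64 and 53 cells Notch1 was at 24.0 and 160.9 CPM, H2-K1 at 379.1 and 146.3 CPM, B2m at 768.4 and 443.6 CPM and Kdr at 351.6 and 229.1 CPM. The 12 scavenger-high iSuRe-HadCre cells had 7 Notch1 UMIs (70.0 CPM, 28.2 to 144). Macrophages share Mrc1, Maf and Lyve1 with sinusoids, and over 9 macrophage markers the groups had 102.5 and 48.1 CPM, with 14 UMIs in the highest cell of iSuRe-HadCre and 7 in that of Control. C1qa, C1qc, Adgre1, Csf1r and Clec4f were at 0 in Control liver and none of the 9 was at 0 in iSuRe-HadCre, and their part in these ratios was not tested.

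Angiocrine genes, through which ECs instruct hepatocytes, split. Bmp2, which sets hepcidin and thereby iron, was at 117.1 and 32.1 CPM (3.66, 2.22 to 6.30), in 17 and 10 cells. Wnt2 was at 174.2 and 96.2 CPM (1.81, 1.32 to 2.52), while Rspo3, which amplifies Wnt signals, was at 641.3 and 749.9 CPM (0.855, 0.749 to 0.976). Hgf, the hepatocyte growth factor, had 16 UMIs and 1 UMI (14.6, 2.27 to 613). At least 5 UMIs of Rspo3 and Wnt2 together were found in 17 of 76 iSuRe-HadCre cells (22.4%) and 12 of 54 Control cells (22.2%), against 24.8% of iSuRe-Cre liver and 1.29% and 1.57% of the heart cells.

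Transcription factors of sinusoids also differed from each other. Maf was at 267.9 and 109 CPM (2.46, 1.85 to 3.30), in 35 and 22 cells. Gata4, required for sinusoidal fate, was at 131.8 and 139.4 CPM (0.945, 0.696 to 1.28), while the heart groups had 12.6 and 6.27 CPM. Cldn5, a tight junction gene on this list that continuous vessels also express, was at 451 and 596.1 CPM (0.757, 0.648 to 0.882).

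**Figure D3:**
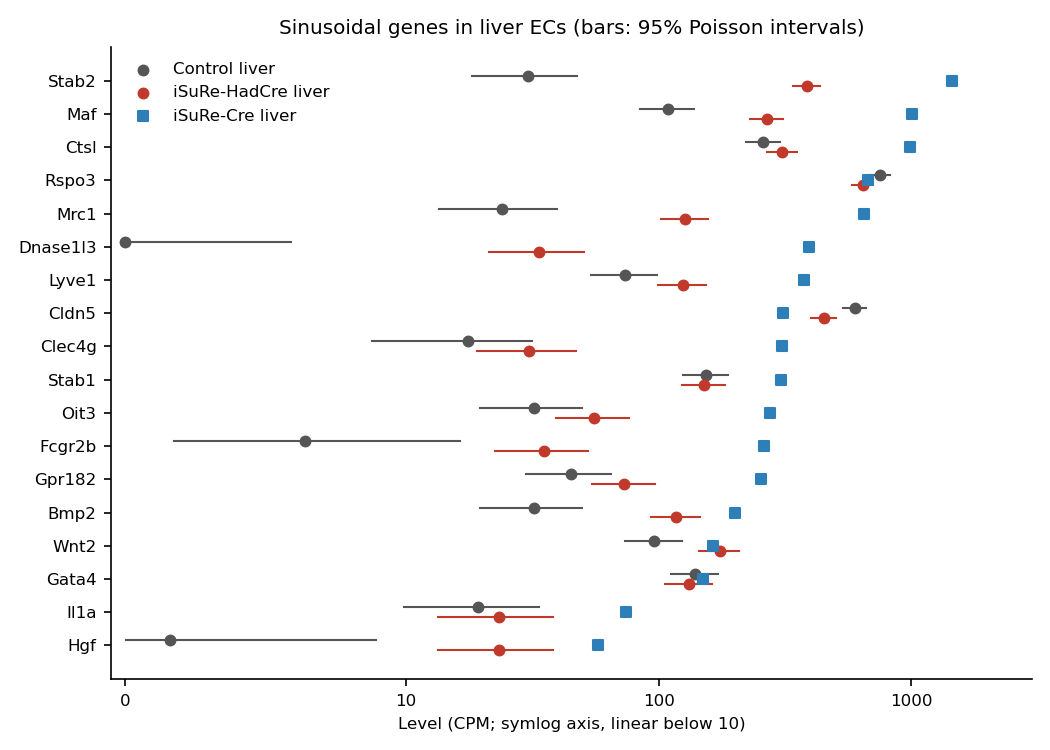
CPM of sinusoidal genes (horizontal axis, linear below 10 and logarithmic above) in Control liver, iSuRe-HadCre liver and iSuRe-Cre liver, with lines giving exact 95% Poisson intervals of the liver pair. Stab2 stood at 386.5 CPM in iSuRe-HadCre, between 30.4 in Control and 1446 in iSuRe-Cre liver, whereas the 3 groups lay close together for Rspo3 and Gata4.

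Among genes of VEGF signalling, which drives EC growth, Kdr differed most upward. Kdr, the main VEGF receptor (chr5:75932827-75978458, minus strand), was at 411.4 CPM in iSuRe-HadCre and 230.8 CPM in Control liver (1.78, 1.45 to 2.20). Its median per cell was 3.17 UMIs per 10000 in iSuRe-HadCre and 0 in Control, with highest cells of 24.8 and 12.4, and a UMI was found in 57 of 76 cells (75%, 63.7 to 84.2) and 23 of 54 cells (42.6%, 29.2 to 56.8), against 20.9% of the hepatocyte-marker and 22.2% of the erythroid-marker barcodes. A single Control cell held 34.0% of that group's Kdr UMIs. In heart Kdr was at 831.5 and 184.2 CPM, so the liver ratio was smaller than the heart ratio by a factor of 0.395 (0.317 to 0.492), and it was at 771.2 CPM in iSuRe-Cre liver.

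The remaining receptors lay nearer to 1. Flt1, a decoy receptor, was at 673.5 and 535.2 CPM (1.26, 1.09 to 1.45), Nrp1 at 682.3 and 596.1 CPM (1.14, 0.997 to 1.31) and Flt4 at 41.0 and 46.5 CPM (0.882, 0.506 to 1.54). Vegfc, the lymphangiogenic ligand, was lower, at 124.5 and 240.4 CPM (0.518, 0.392 to 0.680), although by HTODemux its ratio was 1.33. Of 9 genes 6 could be compared, none was past 2-fold, and the median log2 ratio was 0.22.

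Arterial genes did not move together. Of 14 listed genes 12 could be compared, with 1 past 2-fold higher, 1 lower and a median log2 ratio of 0.18. Gja5, the gap junction gene of arteries, was at 35.1 and 101 CPM (0.348, 0.208 to 0.565), in 11 and 17 cells, while in heart it was at 24.5 and 20.5 CPM. Cxcl12, a chemokine of arterial ECs, was at 1662 and 608.9 CPM (2.73, 2.43 to 3.07), but a single cell held 31.7% of its UMIs in iSuRe-HadCre and 32.6% in Control. Efnb2 and Gja4, also arterial, had ratios of 0.953 (0.733 to 1.24) and 0.986 (0.730 to 1.33), and Sox17, an arterial transcription factor, 1.35 (1.05 to 1.75).

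Venous genes showed no member past 2-fold among the 8 compared of 9, with a median log2 ratio of 0.01. Nr2f2, the transcription factor of venous fate, was at 385.1 and 383 CPM (1.00, 0.841 to 1.20) and its ephrin receptor Ephb4 at 161.1 and 158.6 CPM. Vwf, the clotting protein of larger vessels, was lower, at 278.2 and 416.6 CPM (0.668, 0.551 to 0.808), as was the adhesion receptor Selp, at 61.5 and 131.4 CPM (0.468, 0.315 to 0.687), for which a single Control cell held 42.7% of the UMIs. Emcn, a sialomucin of veins and capillaries, was at 437.8 and 333.3 CPM (1.31, 1.10 to 1.58).

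Large-vessel genes lay below 1 for most members compared. Of 9 such genes 8 were compared, 6 lay below 1 and 1 was past 2-fold lower (Gja5, already given), with a median log2 ratio of -0.36. Of 8 endocardial genes 5 were compared, 2 above and 3 below 1, with 1 higher and 1 lower past 2-fold. Npr3, a natriuretic peptide receptor, was at 39.5 and 173.1 CPM (0.228, 0.144 to 0.351), in 8 and 19 cells, and Nfatc1, a factor of valve endothelium, at 27.8 and 64.1 CPM (0.434, 0.237 to 0.767). Tmem108 ran the other way, at 83.5 and 20.8 CPM (4.01, 2.17 to 7.98).

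Continuous capillary genes were close between the groups, with none of the 13 compared of 15 past 2-fold and a median log2 ratio of 0.19. Fabp4, a fatty acid carrier and the most abundant of them, was at 4586 and 3703 CPM (1.24, 1.17 to 1.31). Ly6c1 and Aqp1, a water channel, had ratios of 1.6 (1.28 to 2.01) and 1.57 (1.29 to 1.92). Car4, a carbonic anhydrase of capillaries, was at 26.4 and 62.5 CPM (0.422, 0.227 to 0.755).

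Genes of the S phase, which serve DNA replication, had ratios above 1 for the 11 members compared of 20, though none was past 2-fold and 2 intervals excluded 1. The median log2 ratio was 0.42 and the list summed to 1082 and 751.5 CPM (1.44, 1.28 to 1.62). Tyms, which makes thymidylate, was at 95.2 and 44.9 CPM (2.12, 1.34 to 3.43) and Pcna, the replication clamp, at 125.9 and 76.9 CPM (1.64, 1.14 to 2.38). The median per cell was 3 and 4 UMIs over the list.

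Genes of mitosis differed less. Of 20 genes 15 were compared, none was past 2-fold and the median log2 ratio was 0.14, with Mki67 at 134.7 and 128.2 CPM (1.05, 0.770 to 1.44) and Top2a, a topoisomerase, at 180.1 and 147.4 CPM (1.22, 0.925 to 1.62). Ube2c, a mitotic ubiquitin enzyme, had a ratio of 1.98, but 70.8% of its iSuRe-HadCre UMIs were in a single cell. Among the 7 CDK inhibitors, which stop the cycle, Cdkn1a (p21) was at 191.8 and 176.3 CPM (1.09, 0.838 to 1.41). A single Control cell held 50% of its UMIs there, and over the settings run the Cdkn1a ratio ranged from 0.744 to 2.37. Cdkn1c (p57) was at 366 and 674.6 CPM (0.543, 0.462 to 0.636), with 42.8% of the Control UMIs in a single cell.

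Cre can stress cells, so targets of p53, the factor activated by DNA damage, were read as well. Of 16 genes 6 were compared, none was past 2-fold and the median log2 ratio was 0.04. Btg2, an antiproliferative gene, was at 291.4 and 163.4 CPM (1.78, 1.40 to 2.29) and Mdm2, the ligase that degrades p53, at 68.8 and 32.1 CPM (2.15, 1.25 to 3.83). Bax, which promotes cell death, was at 260.6 and 285.2 CPM (0.914, 0.738 to 1.13) and Plk2 at 257.7 and 283.6 CPM (0.909, 0.733 to 1.13). Ccng1 and Phlda3 had ratios of 1.55 and 1.16 with intervals that included 1.

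Immediate early genes, which cell dissociation can induce, were higher for most members. All 15 were compared, 13 ratios were above 1, 1 was past 2-fold higher and the median log2 ratio was 0.42. Fosb, the gene past 2-fold, was at 84.9 and 36.9 CPM (2.30, 1.40 to 3.91). Fos was at 396.8 and 258 CPM (1.54, 1.26 to 1.88), Egr1 at 259.2 and 144.2 CPM (1.80, 1.39 to 2.34) and the heat shock gene Hspa1b at 130.3 and 60.9 CPM (2.14, 1.45 to 3.22). These genes moved with the class I and interferon-stimulated genes, and their part in those ratios was not tested.

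In the BMP and TGF-beta pathway, 17 of 18 genes were compared, with Bmp2 and Bmp6 past 2-fold higher, none lower and a median log2 ratio of 0.16. Bmp6, which acts with Bmp2 on hepcidin, was at 118.6 and 46.5 CPM (2.55, 1.65 to 4.05), in 15 and 16 cells, and in heart at 52.2 and 79.5 CPM. Tgfb1, the ligand, was at 174.2 and 84.9 CPM (2.05, 1.47 to 2.89) and Id2, a target, at 270.9 and 153.8 CPM (1.76, 1.37 to 2.28). The co-receptor Tgfbr3 was lower, at 121.5 and 201.9 CPM (0.602, 0.451 to 0.800), while the receptors Bmpr2 and Tgfbr2 had ratios of 0.944 and 1.15 with intervals that included 1.

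Across all genes compared, list members included, the 12 highest and 12 lowest were taken by size among those with UMIs in at least 10 cells of the higher group. Being chosen by this difference they are given as a description. Stab2, Mrc1, Bmp2, Tmem108, Notch1 and Npr3 are among them and were also in lists above. Highest stood Stab2, followed by Nebl, a protein of actin filaments, at 137.6 and 11.2 CPM (12.3, 5.73 to 31.4) in 12 and 3 cells. Lrg1, a glycoprotein that modifies TGF-beta signals, was at 71.7 and 9.62 CPM (7.46, 3.19 to 21.3) in 18 and 6 cells, with 0.967 and 1.32 CPM in heart. Ifi44, induced by interferon, was at 99.6 and 17.6 CPM (5.65, 2.97 to 11.9) in 29 and 10 cells, the widest spread over cells of the 12.

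Several of the others rested on few cells. Pcdh9, a protocadherin, had a ratio of 9.35 with 51.9% of its iSuRe-HadCre UMIs in a single cell, and the transcription factor Foxp2 3.81 with 74.0%. Cd74, the chaperone of MHC class II, had 53 and 6 UMIs (8.07, 3.47 to 23), and in heart 47.7 and 1.65 CPM. Gatm, of creatine synthesis, was at 64.4 and 16.0 CPM (4.02, 1.99 to 8.96), and at 511 CPM in iSuRe-Cre liver. Its level in the 12 scavenger-high cells was 250.1 CPM, against 32.6 CPM in the other 64.

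The lowest gene by this rule was Pdzrn3, a ubiquitin ligase involved in vessel stability. It had 9 and 77 UMIs, or 13.2 and 123.4 CPM (0.107, 0.0471 to 0.214), in 7 and 11 cells, and in heart it was at 149.9 and 82.2 CPM. By HTODemux its liver ratio was 0.978, so its place depended on how cells were assigned. Notch1 came next and stood apart by its spread, since its 100 Control UMIs lay in 41 of 54 cells and no cell held more than 7% of them. For the other 11 of the lowest 12 genes a single Control cell held between 16.7% and 87.5% of the UMIs.

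Slit2, a ligand of Robo receptors, was at 86.4 and 242 CPM (0.357, 0.260 to 0.485), each in 21 cells, and Efna5, an ephrin, at 58.6 and 184.3 CPM (0.318, 0.216 to 0.459) with 54.8% of the Control UMIs in a single cell. Nrg1, a growth factor of the EGF family, was at 143.5 and 376.6 CPM (0.381, 0.298 to 0.484), Adgrg6, an adhesion receptor of ECs, at 98.1 and 278.8 CPM (0.352, 0.261 to 0.469), and Sulf1, a sulfatase of heparan chains, at 55.6 and 174.7 CPM (0.319, 0.214 to 0.465). Hspb1, a small heat shock protein, was at 99.6 and 371.8 CPM, but 87.5% of its Control UMIs were in a single cell and without the deepest cell of each group its ratio was 2.08.

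**Figure D4:**
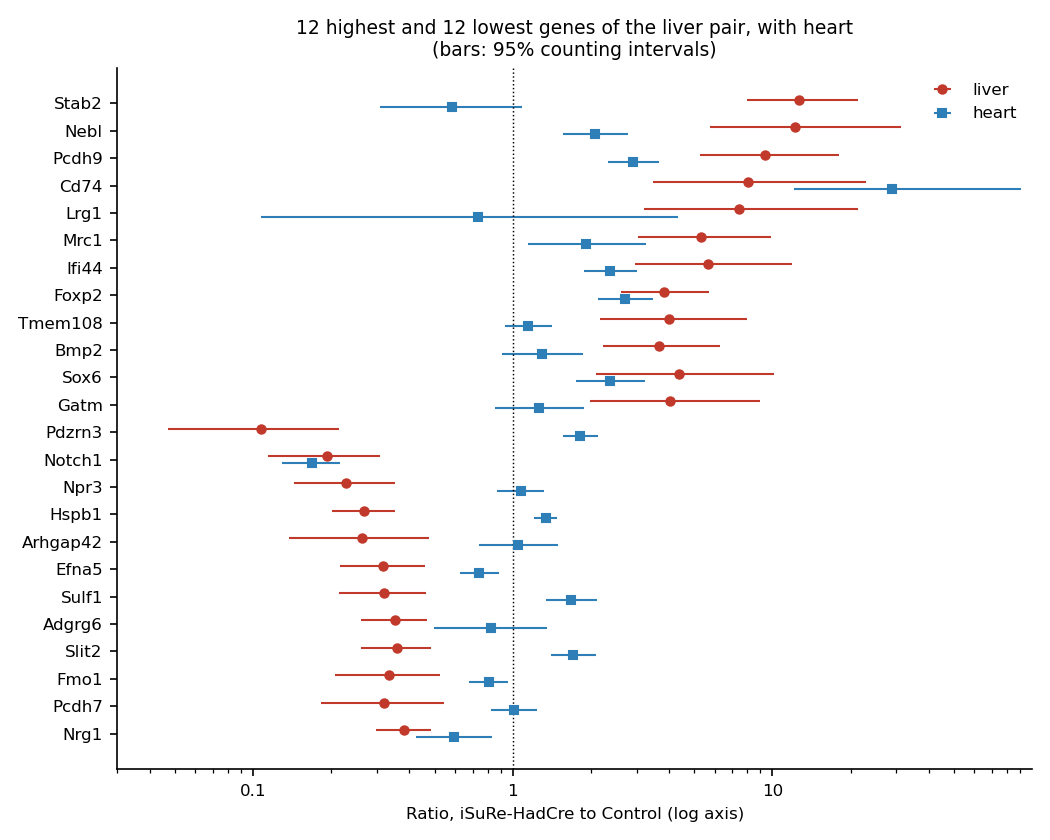
Ratio of CPM in iSuRe-HadCre over Control (logarithmic axis) for the 12 highest and 12 lowest genes of the liver comparison, with exact 95% intervals for counting error, and the ratio of the same genes in heart beside it. Notch1 lay low in both organs at 0.192 and 0.169, whereas Pdzrn3 lay at 0.107 in liver and 1.82 in heart.

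Markers of other cell types were present in both groups at unequal levels. Neutrophil markers summed to 43.9 CPM in iSuRe-HadCre and 596.1 CPM in Control liver, and 294 of the UMIs were in a single Control cell. Lymphocyte markers summed to 4.39 and 136.2 CPM, 71 UMIs of them in a single Control cell, and mural markers to 51.3 and 144.2 CPM. Erythroid markers summed to 3983 and 2058 CPM (1.94, 1.81 to 2.07), mostly haemoglobin. Hepatocyte markers were low in both, at 89.3 and 118.6 CPM, and fibroblast markers stood at 568.1 and 818.8 CPM.

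Neural markers summed to 333.8 and 458.3 CPM and chondrocyte markers to 150.8 and 128.2 CPM. Removing every cell with 10 or more UMIs over the lymphocyte, neutrophil, mural, fibroblast, chondrocyte and neural markers together (without Stmn2), a setting added after seeing the data, left 64 and 45 cells. In these the Notch1 ratio was 0.134, that of the summed class I genes 2.06, that of the sinusoidal genes 1.26 and that of Kdr 1.74. The number of genes past 2-fold was 56 higher and 38 lower, so the lower side shrank from 74. Npr3 was at a ratio of 0.0435, Nrg1 at 0.164 and Gja5 at 0.264 in the same cells, while Bmp6 was at 1.41. The part of the remaining cells of other types in the other ratios was not tested.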

How the data were processed

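The pool was read as 1 10x Genomics library with gene expression and hashtag reads. Alignment and counting were done by the authors in Cell Ranger 7.1.0, on GRCm38 extended by the transgenes, and the deposited matrix holds raw UMI counts for all barcodes, not normalized. Tags were tied to groups through the number that the labels give each group. The study's further requirement of WPRE above 0.5 was left out, since it would select on the reporter. No doublet caller was applied to the values reported, beyond the rule that no other tag may reach its minimum.

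UMIs were summed per group (Python 3.11.15, scipy 1.17.1). A gene was compared with at least 50 UMIs over both groups and called past 2-fold on log2 CPM with 10 CPM added. Intervals are exact 95% intervals, Poisson for sums, binomial for shares and conditional for ratios, and the ratio of liver to heart ratios has a Wald interval. All cover counting error only. The 12 genes named per direction needed UMIs in at least 10 cells of the higher group and the same sign by the mean of per-cell CPM, leaving out mitochondrial, haemoglobin and transgene sequences. Cells, gene lists and settings were chosen with earlier results of these data known. The calculations were tested on simulated data. The alternatives covered tag and Cdh5 minimums, HTODemux (Seurat 5.3.0, R 4.3.3), quality filters, Scrublet (scanpy 1.11.5), scaling, free RNA and UMI minimums. Gene positions are GENCODE's for GRCm38, and promoter windows are RefSeq's, searched for short motifs. The values of 1 gene of the interferon-stimulated list are not reported here.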

Additional observations from a re-analysis of the deposited data

Results flagged for a closer look

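Among the listed genes and the 24 highest and lowest ones, with enough UMIs in both organs, 7 were past 2-fold in at least 1 organ and had liver and heart ratios of iSuRe-HadCre over Control in opposite directions, past counting error. Other listed genes with opposite ratios were past 2-fold in neither organ with 10 CPM added, such as Nfatc1 (0.434 in liver and 1.43 in heart), Cdkn1c (0.543 and 1.45) and Vwf (0.668 and 1.40). The ratios in brackets are without that addition. With 1 sample per group in each organ the difference was not tested across samples. Bmp6 had a ratio of 2.55 in liver and 0.656 in heart, the former 3.89 times the latter (2.43 to 6.21). Over the settings run its liver ratio ranged from 1.015 to 2.88. Pdzrn3 stood at 0.107 in liver and 1.82 in heart, a factor of 0.0586 (0.0289 to 0.119), although its liver ratio was 0.978 by HTODemux. Slit2 stood at 0.357 and 1.71, and Sulf1 at 0.319 and 1.68. Hspb1 had 0.268 and 1.34, Col1a2, a collagen of fibroblasts, 0.450 and 1.20, and the chemokine Ccl5 2.11 and 0.0964. In the liver pair 99.2% of the Ccl5 UMIs of iSuRe-HadCre and 96.4% of those of Control came from a single cell, as did 87.5% of the Control UMIs of Hspb1. The Col1a2 UMIs lay in 14 and 9 cells.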

How the results depend on the processing

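Notch1 stayed lower in iSuRe-HadCre liver under every setting run (0.121 to 0.503), as WPRE (1.42 to 2.96) and the class I sum (1.20 to 2.15) stayed higher. The cause of the changes below was not tested. HTODemux singlets (287 and 672 cells, with as few as 3 and 2 UMIs of the own tag) gave 9 genes past 2-fold higher and 29 lower, Notch1 0.503, WPRE 1.42, Tomato 1.56, class I 1.20, interferon 1.01 and sinusoidal genes 1.15. At a tag minimum of 10 UMIs WPRE was 1.95, class I 1.59 and sinusoidal genes 1.21, and at 50 UMIs sinusoidal genes were 1.19 and Notch targets 0.732. With the own tag 5 times every other, Tomato was 1.51, class I 1.74 and sinusoidal genes 1.15. Without the Cdh5 limit 144 genes were past 2-fold higher, WPRE was 1.76, Tomato 1.61, class I 1.42, interferon 1.14 and sinusoidal genes 0.999. With Cdh5 above 1.5, 48 genes were lower, interferon was 1.30, sinusoidal genes 1.15 and Notch targets 0.721. With WPRE above 0.5 in both groups WPRE was 2.33. A mitochondrial limit of 10% gave sinusoidal genes 1.20. Below 6000 genes per cell, 43 genes were lower, class I was 1.73, interferon 1.25 and sinusoidal genes 1.15. Removing the 5% highest Scrublet scores gave class I 1.64, interferon 1.31 and sinusoidal genes 1.16. With 3 or more sinusoidal UMIs class I was 2.15. Adding 1 CPM made 119 genes lower, a minimum of 200 UMIs gave 10 higher and 14 lower, and no minimum 187 and 298. Among settings chosen after seeing the data, sinusoidal genes were 0.948 without scavenger-high cells, and without cells carrying other markers 38 genes were lower and interferon was 1.34. Thinning gave Notch1 shares of 3.61% and 29.0%.

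Single genes turned as follows. Hspb1 was 2.02 at a minimum of 50 tag UMIs, 1.73 at 5 times, 1.90 with Cdh5 above 1.5, 1.88 below 6000 genes, 1.98 without other markers and 2.08 without the deepest cells. Col1a2 was 1.09 at 5 times, 1.40 with Cdh5 above 1.5 and 1.59 without other markers. S100a8 was 1.05 at 10 tag UMIs, 1.46 without the Cdh5 limit and 2.12 without other markers, and S100a9 was 1.13 by HTODemux and 1.25 without the Cdh5 limit. At 50 tag UMIs Hba-a2 was 0.699, Hbb-bs 0.784 and Hbb-bt 0.815, and at 5 times Hba-a2 was 0.946. By HTODemux Pcdh9 was 0.855, Slit2 1.06, Sox6 0.886 and Tmem108 0.943. Without the Cdh5 limit Pcdh9 was 0.834, Efna5 1.34 and Pcdh7 1.12, and by Scrublet Efna5 was 1.23. No paired analysis was possible because each group was 1 hashtagged sample with no replicate number. Keeping cells with fewer than 3 sinusoidal UMIs left 10 and 4 cells and was not run.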

Other observations

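Transcription factors of the ETS and SOX families had 1 member past 2-fold of 9 compared, with a median log2 ratio of 0.16. Ets2 was at 193.3 CPM in iSuRe-HadCre and 89.7 CPM in Control liver (2.15, 1.56 to 3.00) and Ets1 at 494.9 and 346.1 CPM (1.43, 1.20 to 1.70), while Erg and Fli1, which maintain EC identity, had ratios of 0.868 and 0.99 with intervals that included 1. Flow-responsive genes had none of 7 past 2-fold, with Klf4 at 376.3 and 251.6 CPM (1.50, 1.22 to 1.84) and Klf2 at 806.8 and 689 CPM (1.17, 1.03 to 1.33). A single Control cell held 36.0% of the Klf2 UMIs. Tip-cell genes had none of 8 past 2-fold and a median log2 ratio of 0.05, and Esm1, the marker of tip cells, had 3 and 4 UMIs.

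Glycolysis genes lay close to 1, with none of 11 past 2-fold and a median log2 ratio of 0.04. Matrix genes had 1 of 17 past 2-fold lower, Col1a2, and Timp3, an inhibitor of matrix proteases, was at 617.9 and 387.8 CPM (1.59, 1.36 to 1.87). Y-linked genes summed to 153.7 and 104.2 CPM (1.48, 1.07 to 2.04), and their part in the other ratios was not tested.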
